A study of Mus musculus with 14 samples.

Results

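The cytosolic ribosomal protein genes encode the protein components of the ribosome that works outside mitochondria. They were taken from the RefSeq annotation as the protein-coding genes whose symbols begin with Rpl or Rps and a digit, or with Rplp. The ribosomal S6 kinases (Rps6k), Rps19bp1 and symbols that mark pseudogenes or like copies were left out. This gave 79 genes of 21887 protein-coding genes, 47 of the large subunit and 32 of the small subunit. Of these, 74 had at least 1 peak of open chromatin within 1 kb of either annotated end (45 large and 29 small), and 84 of the 57289 consensus peaks lay there.

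Open chromatin was read by bulk ATAC-seq, in which the Tn5 transposase cuts accessible DNA, in long-term haematopoietic stem cells (LT-HSCs) from bone marrow of C57BL/6 mice. The 14 libraries were from young mice of 10 to 16 weeks without inhibitor (n = 4), aged mice of over 80 weeks without inhibitor (n = 5), and cells of aged mice given 100 µM Rhosin (n = 5, called aged Ri, Ri for RhoA inhibitor). Rhosin blocks activation of RhoA, a small GTPase that acts on the actin cytoskeleton. All cells of all 3 groups, the untreated ones included, spent 16 h outside the animal at 37 °C and 3% oxygen, so no group holds cells taken straight from marrow. No young cells were treated. The labels do not say whether a library pools several mice, so p-values measure the spread between these libraries.

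Ribosomal protein genes are among the most strongly transcribed genes of most cells. Their promoters often start transcription in a run of pyrimidines, the TCT initiator, and their messenger RNAs carry the matching 5' terminal oligopyrimidine tract, through which mTOR signalling controls their translation. In the blood system, loss of 1 copy of several of them causes Diamond-Blackfan anaemia, a failure of red cell production, and haematopoietic stem cells are known for a low and tightly held rate of protein synthesis.

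Promoter sequence was available for 59 of the 79 genes, from the RefSeq table of GRCm38.p6, as windows of 300 bases from 250 before to 50 after the annotated start. The first set below shows the most accessible promoters for which a sequence was held, as 120 bases running from 100 before the start to 20 after it, 5′ to 3′ on the gene's strand. Capitals mark every match, on either strand, to CCGGAAG (GABP and other ETS factors), AANATGGC (YY1), GGGCGG (SP1) or CTTTCC (the TCT initiator core), and matches that touch run together. The palindromic NRF1 motif and a pair of motifs named with their counts were also searched. Rps19 is at chr7:24884492-24884611, plus strand, Rpl13a at chr7:45128726-45128845, minus strand, Rps21 at chr2:180257279-180257398, plus strand, and Rpl37 at chr15:5116513-5116632, plus strand.
Rps19: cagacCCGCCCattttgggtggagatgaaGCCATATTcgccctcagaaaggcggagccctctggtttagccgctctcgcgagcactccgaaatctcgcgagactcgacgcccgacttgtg
Rpl13a: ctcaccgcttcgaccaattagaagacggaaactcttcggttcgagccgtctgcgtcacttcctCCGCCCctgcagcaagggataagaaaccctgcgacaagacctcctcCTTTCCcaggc
Rps21: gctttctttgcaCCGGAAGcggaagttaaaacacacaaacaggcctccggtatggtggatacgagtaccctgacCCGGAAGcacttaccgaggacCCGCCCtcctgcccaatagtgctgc
Rpl37: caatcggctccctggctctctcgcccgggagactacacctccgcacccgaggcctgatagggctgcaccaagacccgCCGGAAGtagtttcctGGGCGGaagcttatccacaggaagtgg

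The next set shows promoters of lower accessibility for contrast, below the median of all gene ends in level. Rpl4 is at chr9:64173287-64173406, plus strand, Rpl35a at chr16:33056414-33056533, plus strand, Rpl37a at chr1:72711160-72711279, plus strand, and Rps4x at chrX:102189372-102189491, minus strand. The last line is Rps24 at chr14:24490653-24490772, plus strand, shown because its peak was lower in aged Ri than in young libraries (described further on), and it holds none of these motifs in the stretch printed.
Rpl4: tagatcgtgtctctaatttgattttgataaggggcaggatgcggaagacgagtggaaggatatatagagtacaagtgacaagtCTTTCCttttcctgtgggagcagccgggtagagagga
Rpl35a: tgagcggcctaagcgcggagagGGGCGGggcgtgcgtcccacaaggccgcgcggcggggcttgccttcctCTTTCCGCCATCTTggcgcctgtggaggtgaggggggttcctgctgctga
Rpl37a: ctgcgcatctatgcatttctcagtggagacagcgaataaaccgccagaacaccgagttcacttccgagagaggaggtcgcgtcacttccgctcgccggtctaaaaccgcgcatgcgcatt
Rps4x: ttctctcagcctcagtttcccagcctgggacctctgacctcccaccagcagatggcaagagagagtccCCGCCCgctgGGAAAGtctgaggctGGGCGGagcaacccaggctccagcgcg
Rps24: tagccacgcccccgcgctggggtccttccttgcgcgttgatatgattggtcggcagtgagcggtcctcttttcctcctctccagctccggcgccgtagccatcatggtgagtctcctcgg

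Among the printed stretches, SP1 matches stood in all 4 of the first set and in 2 of the 4 lower ones, and CCGGAAG in 2 and 0. Over the 55 promoters whose gene had a tested end, the median level was 107 CPM per peak with CCGGAAG (22 genes) and 76.8 without, 108 with AANATGGC (10 genes) and 80.1 without, 103 with GGGCGG (31 genes) and 73.6 without, and 82.3 with CTTTCC (26 genes) and 90.4 without. These medians were not tested. Over the whole 300-base windows and on both strands, CCGGAAG stood in 23 of 59 ribosomal protein promoters (39.0%), against 12.03% of the 17492 promoters in the table and 17.5% of the 10599 whose gene had a tested end. AANATGGC stood in 10 of 59 (16.9%) against 6.73% of all. CTTTCC stood in 28 of 59 (47.5%) against 25.6%. On the gene's own strand and within 20 bases of the start, CTTTCC was found in 10 of 59 (16.9%) against 2.09% of all promoters and 1.95% of those with a tested end. The E-box CACGTG, to which MYC and other factors bind, stood in 8.47% against 7.94%, GGGCGG in 54.2% against 46.8%, TATAA in 25.4% against 22.6%, and the NRF1 motif in 3.39% against 1.35%. Among promoters with a tested end, GGGCGG was more frequent (64.7%) and TATAA less frequent (13.3%) than in the ribosomal protein set. Median GC content was 58% in these windows, against 56.7% in all and 61% in those with a tested end. Matches are descriptions of the sequence and show no binding.

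The peaks sat on the start sites. For the 55 genes with a promoter window and a tested end, the annotated start lay inside the peak region in 50, and the median peak centre was 12.5 bases upstream (-12.5 relative to the start), with quartiles at -107.5 and 49 bases. Each gene was read at whichever of its annotated ends had more counts in peaks, called its gene end. For the 74 tested this was the annotated start in 51, had no strand given in 19, was reached by the same peaks from both ends in 2, and was the 3' end in 2 (Rpl22 and Rpl41). The ends of 19 genes lay within 1 kb of another protein-coding gene's end and share its peaks. Chromosome 7 carries 14 of the 79 genes.

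No peak lay within 1 kb of 5 genes. Of these, 3 carry retrocopy symbols (Rpl37rt, Rps23rg1 and Rps27rt). The other 2 are Rps2 and Rpl17, whose nearest peaks lay 1495 and 1139 bp from an annotated end with mean counts of 136 and 54.1, and both peaks lay inside the gene. With a window of 2 kb both genes entered, and 76 were tested.

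Libraries held 765533 to 3176246 counts in peaks. The 74 gene ends had mean counts of 11.5 to 349 per library (median 90.5), and 73 had at least 20. Of the LT-HSC markers, 9 of 10 had a peak at an end (not Slamf1), and the defining markers Pax5 and Ms4a1 of B cells, Cd3e, Cd3g and Cd8a of T cells, Ly6g and S100a8 of granulocytes, Hbb-b1, Alas2 and Epor of erythroid cells, and Cdh5, Pdgfra and Lepr of endothelium and stroma had none. Summed CPM over the 2 of 5 endothelial and stromal markers with a peak ran from 30.0 to 70.4 in young, 68.0 to 100.0 in aged and 49.7 to 112 in aged Ri libraries, and over the 2 of 5 erythroid markers from 58.2 to 79.8, 73.9 to 121 and 57.7 to 103. Over the 3 of 5 granulocyte and monocyte markers with a peak it ran from 32.9 to 41.7, 32.9 to 69.9 and 27.3 to 88.3. Over the 2 of 5 B cell markers it ran from 87.8 to 160.4, 78.2 to 103 and 91.2 to 121, and over the 2 of 5 T cell markers from 102 to 175, 95.4 to 189 and 129.7 to 176. The part of these cells in the results was not tested. Peaks at the ends of any protein-coding gene took up 48.7% ± 1.94 of counts in the 4 young libraries (mean ± SD), 42.6% ± 4.40 in the 5 aged and 42.5% ± 4.55 in the 5 aged Ri ones.

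Ribosomal protein gene ends were open in all 3 groups, and more so than most gene ends. In CPM, counts scaled to a common library total, per 700-bp peak and normalized over gene ends, their median was 88.8 against 51.9 for the 13239 gene ends tested, and 65 of 74 lay above that median. The levels spanned 24.8-fold. The 5 highest were Rps19 (300.3), Rpl13a (274), Rps29 (239), Rps21 (232) and Rpl37 (209), and 14 were in the top 10% of all gene ends. The Rps21 peak is shared with Cables2. The 5 lowest were Rpl22 (12.1), Rpl19 (24.8), Rps4x (34.5), Rpl38 (41.1) and Rpl37a (44.4), and 9 lay below the median of all gene ends. The Rpl19 peak, shared with Cacnb1, was centred far upstream of the start used for its promoter window (-3764.5 bases). Its level therefore does not describe that promoter. At Rpl38 the start also lay outside the peak, whose centre was 361.5 bases downstream.

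Rps19, a small subunit protein and the gene most often mutated in Diamond-Blackfan anaemia, measured 262, 326, 383 and 283 CPM in young, 228, 268, 332, 328 and 305 in aged, and 243, 321, 379, 348 and 197 in aged Ri libraries. The groups overlapped fully. Rpl22, a large subunit protein known for its part in T cell development, measured 2.31 to 17.6 CPM in young, 5.85 to 20.01 in aged and 5.67 to 29.0 in aged Ri libraries. Its value came from a weak peak at the 3' end, because no peak lay within 1 kb of its annotated start, so it does not describe the promoter.

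By subunit, the small subunit had a median of 101 CPM per peak (29 genes, 34.5 to 300.3) and the large subunit 84.6 (45 genes, 12.1 to 274). Ends shared with another gene had a median of 111 (19 genes) and unshared ends 84.6 (55 genes). The 75 nuclear genes for mitochondrial ribosomal proteins had a median of 50.9, close to that of all gene ends. Ribosomal protein gene ends also varied less between libraries of a group than other gene ends: the median within-group SD of log2 CPM was 0.24 against 0.32 for all, and 68 of 74 lay below the median of all gene ends. Counting error falls as counts rise, and these ends hold more counts than most, so how much of the smaller spread goes with the counts was not tested.

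**Figure D1:**
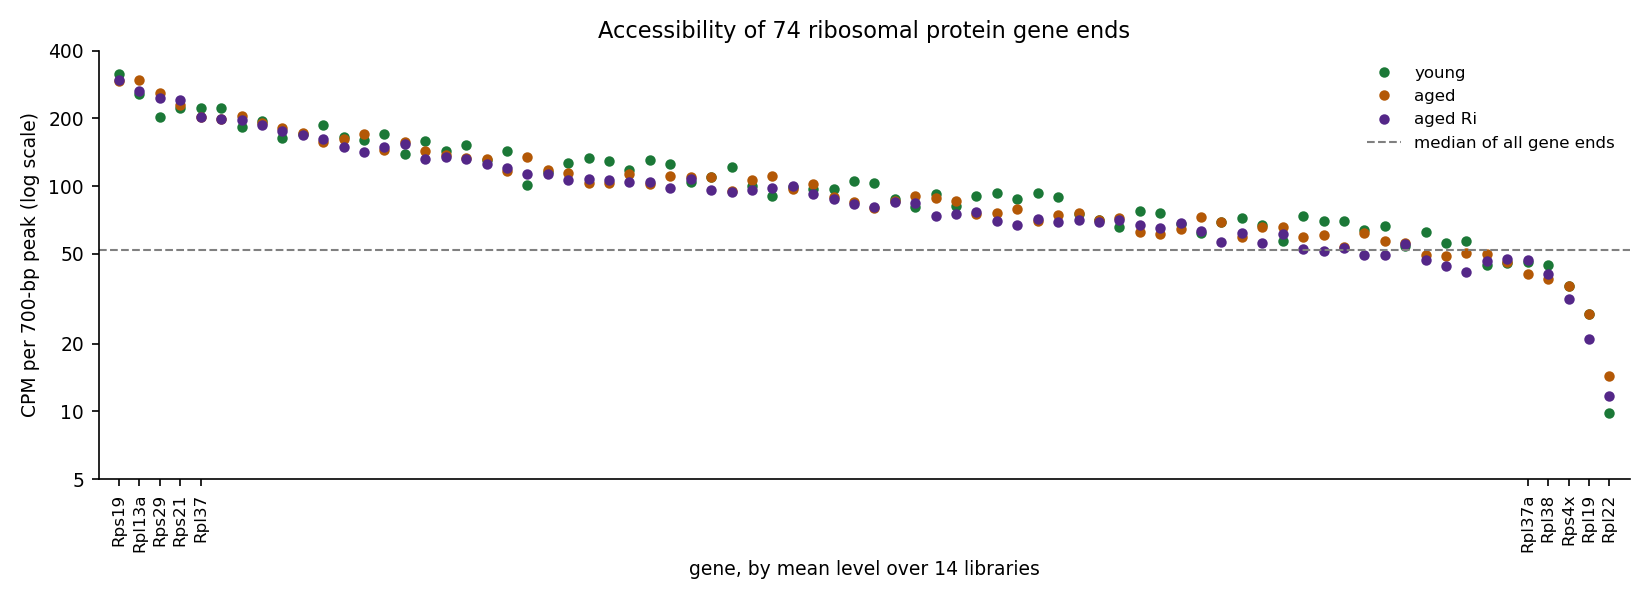
Mean accessibility of the 74 ribosomal protein gene ends in young, aged and aged Ri libraries, in CPM per 700-bp peak on a log axis, with genes ordered by their mean over 14 libraries, the 5 highest and 5 lowest named, and a dashed line at the median of all gene ends (51.9). Levels run from Rps19 at 300.3 to Rpl22 at 12.1, and the 3 group means of a gene lie close together beside that range.

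The share of all counts that fell in the 84 peaks averaged 0.484% ± 0.0234 over the 4 young libraries (SD), 0.409% ± 0.0447 over the 5 aged and 0.392% ± 0.0634 over the 5 aged Ri ones. Single young libraries held 0.454, 0.511, 0.491 and 0.479%, aged libraries 0.373, 0.365, 0.405, 0.426 and 0.476%, and aged Ri libraries 0.311, 0.433, 0.367, 0.475 and 0.376%. Both older groups reached into the young range, through aged 5 and aged Ri 4. Within the sequencing batches, aged less young was -0.0856, -0.0850 and -0.00343 percentage points in batches 1, 2 and 3, and aged Ri less young was -0.0826, -0.0795 and -0.103. Aged Ri less aged was 0.00300 and 0.00549 in batches 1 and 2 and -0.0995 in batch 3, where each group has only 1 library.

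The share of counts in gene-end peaks of all genes moved the same way in those batches, with aged less young at -7.74, -6.08 and -1.13 percentage points. Taken as a share of gene-end counts alone, the ribosomal protein peaks held 0.995% ± 0.0629 over the 4 young libraries (SD), 0.960% ± 0.0230 over the 5 aged and 0.922% ± 0.0793 over the 5 aged Ri ones, differences of the size of the spread within a group. Fold changes of gene ends below are on that scale, which removes the shift common to gene ends, and those of single peaks are on the scale of all peaks, which keeps it.

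**Figure D2:**
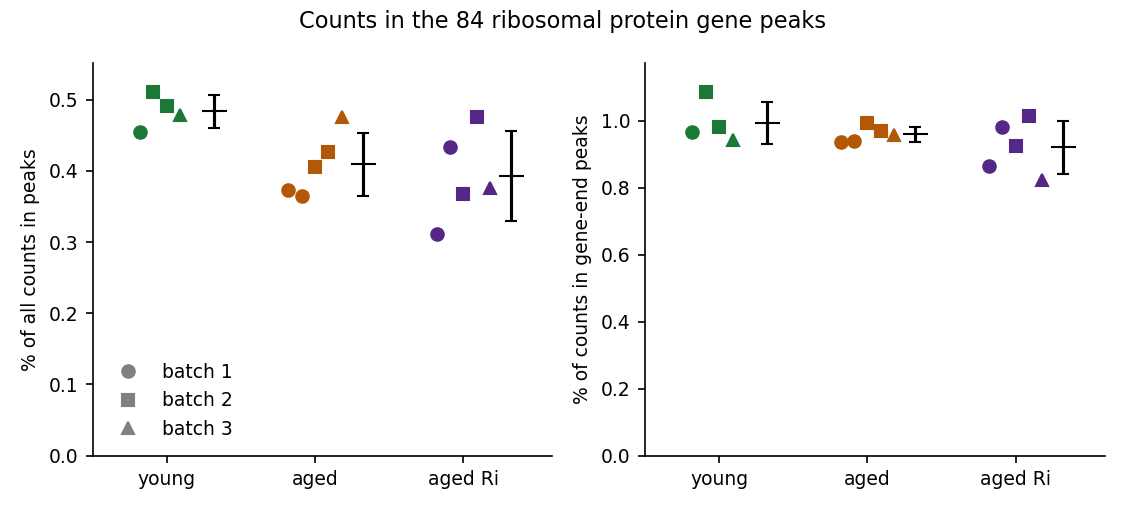
Share of counts in the 84 ribosomal protein gene peaks per library, as a percentage of all counts in peaks (left) and of counts in gene-end peaks (right), with the symbol giving the sequencing batch and the bar the mean ± SD. Over all counts the mean goes from 0.484% in young to 0.392% in aged Ri libraries, and over gene-end counts from 0.995% to 0.922% with overlapping groups.

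None of the 74 gene ends passed the test between aged and young cells (edgeR quasi-likelihood test with batch in the model, adjusted p under 0.05), where 2.1% of all gene ends did. DESeq2 also called 0, and at an unadjusted p under 0.05 there were 3 higher and 4 lower, against 10.3% and 7.27% of all gene ends. The median log2 fold change was -0.06 against -0.01 over all gene ends, and 47 of 74 lay below 0, against 50.8% of all. The intervals were narrow: in 73 of 74 the 95% interval lay within 2-fold either way (81.9% of all gene ends), and in 59 within 1.5-fold (44.3%).

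The small subunit gene Rps29 had the highest estimate, at a log2 fold change of 0.37 ± 0.14 (SE; edgeR adjusted p = 0.147). It measured 225, 229, 201 and 156 CPM in young and 202, 294, 264, 303 and 239.9 in aged libraries. The groups overlapped at aged 1. Rplp0, the base of the P-stalk that recruits elongation factors to the ribosome, measured 91.8, 88.3, 104 and 78.9 CPM in young and 116, 106, 109.6, 111 and 115 in aged libraries. Every aged library lay above every young one, with a log2 fold change of 0.32 ± 0.14 (SE; edgeR adjusted p = 0.237). Its partners on the stalk, Rplp1 and Rplp2, lay slightly below 0.

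At the other end, Rpl29, a large subunit protein, had the lowest estimate (-0.44 ± 0.16, SE; edgeR adjusted p = 0.128). Its gene end measured 117, 113, 69.3 and 74.3 CPM in young and 69.7, 67.1, 77.4, 70.7 and 65.8 in aged libraries. Young 1 and 2 were high and young 3 and 4 lay within the aged range. Rpl26, a large subunit protein also known to bind p53 messenger RNA, measured 109, 118, 94.7 and 91.1 CPM in young and 86.3, 79.7, 63.7, 90.7 and 81.2 in aged libraries (-0.38 ± 0.15, SE; edgeR adjusted p = 0.169). Rps3a1 of the small subunit measured 113, 129, 115 and 130.2 CPM in young and 84.4, 96.5, 91.9, 100.0 and 102 in aged libraries (-0.34 ± 0.14, SE; edgeR adjusted p = 0.183). In both genes every aged library lay below every young one. The values of aged and young libraries did not overlap at 4 gene ends that were lower and 2 that were higher in aged cells, against 1.37% and 2.52% of all gene ends.

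Rps27a, which encodes ubiquitin fused to a small subunit protein and shares its end with Clhc1, had 102, 99.4, 90.1 and 113 CPM in young and 141, 149.6, 148, 135 and 102 in aged libraries. Its log2 fold change was 0.35 ± 0.15 (SE; edgeR adjusted p = 0.217), and without young 4 it was called higher (0.56; edgeR adjusted p = 0.0329). In that fit 4.98% of all gene ends were called, beside 1.35% of the ribosomal protein ones. No other gene end of the set was called in aged against young cells when any single library was left out.

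No ribosomal protein gene end was called between treated and untreated aged cells. Between aged Ri and aged libraries 0 of 74 passed with edgeR and with DESeq2, where 0.0755% of all gene ends passed with edgeR, and at an unadjusted p under 0.05 there were 0 higher and 2 lower, against 3.99% and 2.73% of all gene ends. The median log2 fold change was -0.08 (all gene ends -0.003), and 55 of 74 lay below 0 (50.8% of all). The 95% interval was within 2-fold in 73 and within 1.5-fold in 66 of 74, against 90.8% and 60.8% of all gene ends. At 0 of the 74 did the libraries of the groups separate, against 0.476% of all gene ends in the higher and 0.257% in the lower direction.

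The 2 below the unadjusted threshold were Rpl12 and Rps3. Rpl12, a large subunit protein at the foot of the P-stalk, measured 60.6, 60.1, 71.7, 76.0 and 76.8 CPM in aged and 56.5, 64.1, 53.9, 53.02 and 54.4 in aged Ri libraries (-0.33 ± 0.15, SE; edgeR adjusted p = 0.688). Its peak is shared with Lrsam1. Rps3, a small subunit protein at the messenger RNA entry channel, measured 179.9, 159, 178, 165 and 175 CPM in aged and 123, 151, 165, 179 and 90.9 in aged Ri libraries (-0.30 ± 0.13, SE; edgeR adjusted p = 0.628). Both overlapped between the groups, Rpl12 through aged Ri 2 alone and Rps3 through 2 aged Ri libraries. Rpl19, read at a peak away from its promoter window, had the lowest estimate at -0.37 ± 0.24 (SE) and Rpl37a the highest at 0.20 ± 0.19 (SE).

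The values below 0 were spread unevenly over the batches. The median log2 ratio of aged Ri to aged means over the 74 gene ends was -0.003, -0.04 and -0.29 in the 3 batches, and in the last of them 65 of 74 lay below 0, with 1 library a group. Per library, the median deviation of the 74 genes from their own means was lowest in aged Ri 5 (-0.24, 65 of 74 genes below) and aged Ri 1 (-0.18, 58 of 74), and highest in young 2 (0.22, 8 of 74 below). Aged Ri 2 and aged Ri 4 lay above 0 (0.09 and 0.11). The treated libraries therefore differed among themselves by more than the group medians did.

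**Figure D3:**
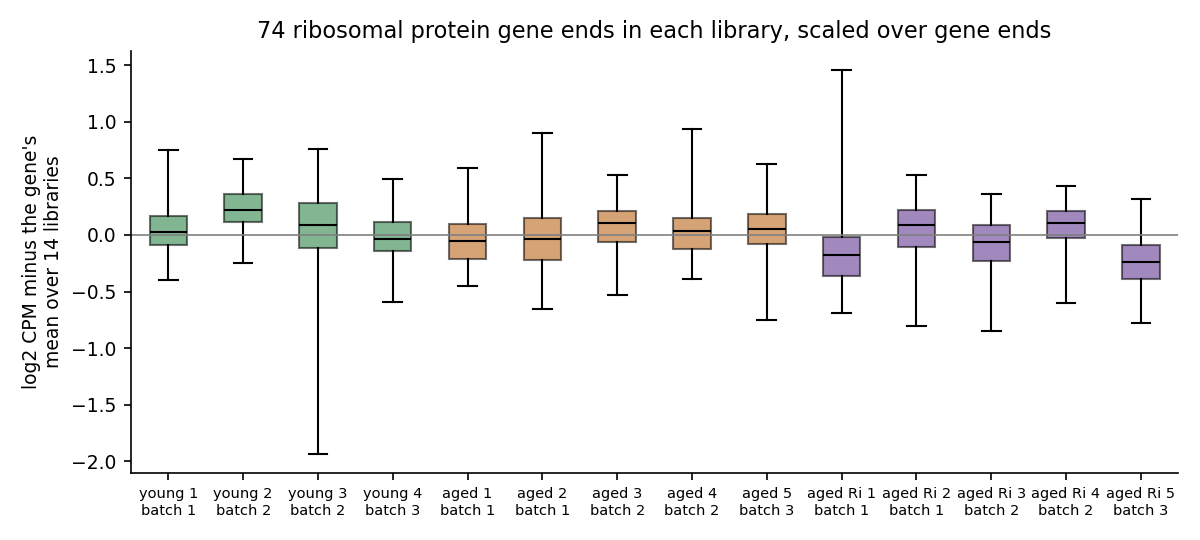
Deviation of log2 CPM of each of the 74 gene ends from that gene's mean over 14 libraries, normalized over gene ends, with a box from the lower to the upper quartile, a line at the median and whiskers to the lowest and highest gene. Aged Ri 5 (-0.24) and aged Ri 1 (-0.18) have the lowest medians and young 2 the highest (0.22).

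Against young cells, the treated aged cells again gave 0 called gene ends of 74 (edgeR and DESeq2), where 5.2% of all gene ends passed with edgeR. At an unadjusted p under 0.05, 15 were lower and 1 was higher, against 9.49% and 12.3% of all gene ends. The median log2 fold change was -0.16 (all gene ends -0.004), and 58 of 74 lay below 0 (50.6% of all). Within batches the median log2 ratio was -0.02, -0.14 and -0.26. The 95% interval lay within 2-fold in all 74 and within 1.5-fold in 51. This comparison shares its young libraries with aged against young, and its aged Ri libraries with aged Ri against aged.

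Among the lowest estimates were Rpl29 (-0.45 ± 0.15, SE; edgeR adjusted p = 0.0749), Rpl8 (-0.42 ± 0.18) and Rps23 (-0.41 ± 0.15). Rps23, a small subunit protein of the decoding centre, measured 88.6, 94.5, 104 and 87.3 CPM in young, 67.9, 68.5, 80.6, 78.7 and 84.8 in aged, and 56.5, 78.6, 73.7, 87.1 and 53.7 in aged Ri libraries. Its young libraries lay above all the others, aged Ri 4 only just. Groups did not overlap at 4 gene ends, all lower in aged Ri (Rpl7a, Rps25, Rps23 and Rps24), against 2.03% of all gene ends lower and 3.97% higher. Rpl7a shares its peak with Med22 and Rps25 with Trappc4. Leaving out aged Ri 4 gave 3 called gene ends (Rpl29, Rps23 and Rps3a1, all lower), leaving out aged Ri 2 gave Rps23 and leaving out young 3 gave Rpl29. These were 4.05%, 1.35% and 1.35% of the 74. In the same fits 9.07%, 8.14% and 2.96% of all gene ends were called, and 3.06%, 2.92% and 0.626% were called lower.

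Scaling over all peaks in place of gene ends moved gene ends down against young cells, the median of all to -0.25 in aged and -0.24 in aged Ri. On that scale 0 ribosomal protein gene ends were called in aged against young and 3 in aged Ri against young, all lower, among them Rps24 (log2 -0.65; edgeR adjusted p = 0.0445) and Rpl29 (log2 -0.67; edgeR adjusted p = 0.0463). The background moved as well. In aged against young, 1.87% of all gene ends were higher and 0.234% lower when scaled over gene ends, and 0.551% and 0.612% (1.16% in all) when scaled over all peaks. In aged Ri against young, 4% were higher and 1.2% lower on the first scale, and 1.95% and 3.92% (5.87% in all) on the second.

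**Figure D4:**
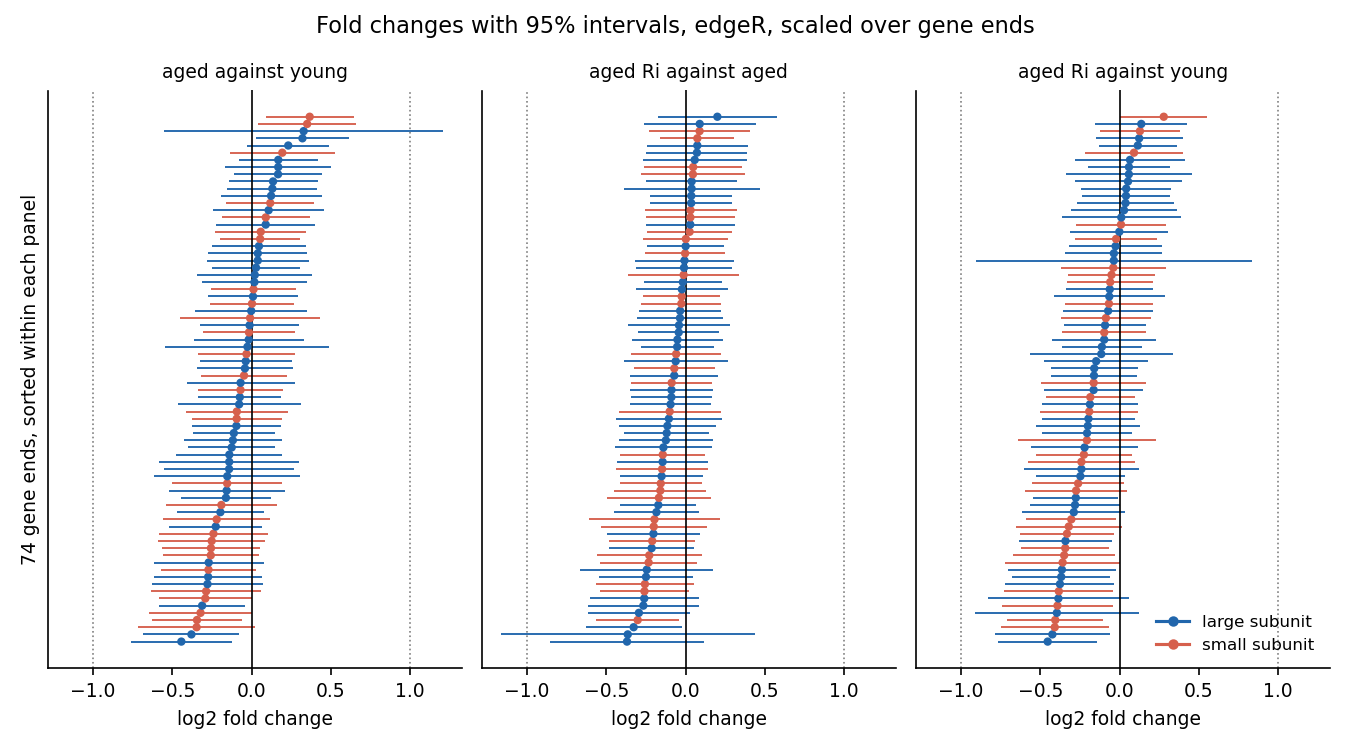
Log2 fold change of the 74 gene ends with 95% intervals from edgeR in the 3 comparisons, normalized over gene ends, each panel sorted on its own, with large subunit genes in blue and small subunit genes in red and dotted lines at 2-fold. Nearly every interval lies within 2-fold (73, 73 and 74 of 74), and none passes the adjusted threshold.

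On the scale of all peaks, most ribosomal protein peaks lay below 0 against young cells. Of 84 peaks, 77 were below 0 in aged against young, with a median log2 fold change of -0.27, and 79 in aged Ri against young, with a median of -0.35. Gene-end peaks of all genes had medians of -0.22 in both. In aged Ri against aged, 55 were below 0 and the median was -0.06, against 0.004 for gene-end peaks. With edgeR, 0 of 84 were called in aged against young (5.72% of all peaks called; 1 higher and 20 lower at an unadjusted p under 0.05, where 12.8% and 9.5% of all peaks and 4.06% and 17.2% of gene-end peaks were, and 1 called with DESeq2) and 0 in aged Ri against aged (0.446% of all peaks; 1 higher and 0 lower unadjusted, where 5.61% and 4.61% of all peaks and 3.19% and 1.76% of gene-end peaks were, and 0 called with DESeq2). DESeq2 called 3.06% of gene-end peaks in aged against young and 0.124% in aged Ri against aged.

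In aged Ri against young, 4 of the 84 peaks were lower (4.76%) and 0 were higher, where 11.5% of all peaks were called, 3.56% of all peaks were lower and 4.13% of gene-end peaks were lower. The 4 included the peaks of Rps24, Rpl29 and Rpl8. The called share of 4.76% is near that of gene-end peaks. At an unadjusted p under 0.05, 26 of the 84 were lower (31%) and 0 were higher. Of gene-end peaks, 18.5% were lower and 5.68% higher at that level, and the difference was not tested. The 4 calls were not stable to single libraries: without young 1 or without aged Ri 3 there were 0, and without aged Ri 2 or aged Ri 4 there were 21 and 15, all lower. In the same fits, 1.23% and 0.733% of gene-end peaks were lower without young 1 or aged Ri 3, and 9.9% and 8.44% without aged Ri 2 or aged Ri 4, beside 25% and 17.9% of the ribosomal protein peaks. Without the batch term, or with only these 2 groups in the fit, there were 0.

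Rps24, a small subunit protein mutated in Diamond-Blackfan anaemia, has its peak at chr14:24490524-24491223 (mm10) over the start printed above. It measured 35.5, 34.4, 44.0 and 44.0 CPM in young, 27.3, 19.9, 30.1, 28.1 and 35.2 in aged, and 21.3, 17.0, 21.9, 27.3 and 32.7 in aged Ri libraries. The young and aged Ri libraries did not overlap, and the fold change was 1.58-fold lower (log2 -0.66 ± 0.21, SE; edgeR adjusted p = 0.0361), with log2 ratios of -0.89, -0.67 and -0.43 in the 3 batches. It was not called without young 1, 2 or 3 or aged Ri 2 or 3 (edgeR adjusted p = 0.0509 to 0.157). Aged libraries lay between, with log2 -0.44 ± 0.21 (SE) against young and -0.22 ± 0.20 (SE) for aged Ri against aged, neither called.

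Rpl29, at chr9:106429113-106429812, measured 65.3, 63.2, 42.6 and 46.9 CPM in young, 30.5, 28.1, 36.1, 36.3 and 40.1 in aged, and 30.2, 42.6, 26.5, 45.7 and 30.3 in aged Ri libraries. Aged and aged Ri libraries stood at like means, 34.2 ± 4.83 and 35.0 ± 8.50 (SD, n = 5 each), below 54.5 ± 11.4 (SD, n = 4) in young. It was 1.59-fold lower in aged Ri than young (log2 -0.67 ± 0.22, SE; edgeR adjusted p = 0.0408), with log2 ratios of -0.84, -0.55 and -0.63 in the batches. It was not called without young 1 or 2, aged 1, 2 or 4 or aged Ri 1, 3 or 5 (edgeR adjusted p = 0.0513 to 0.226). In aged against young it was -0.68 ± 0.22 (SE; edgeR adjusted p = 0.0574), just above the threshold of 0.05, and it was called lower under several alternatives. These were DESeq2 (adjusted p = 0.0452) and edgeR with loess offsets, with only the 2 groups, or without young 4, aged 5 or aged Ri 2, 3, 4 or 5 (edgeR adjusted p = 0.0307 to 0.0469).

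Rpl8, a large subunit protein near the peptidyl transferase centre, has its peak at chr15:76903896-76904595. It measured 25.3, 40.5, 28.4 and 40.1 CPM in young, 23.3, 20.5, 24.1, 21.9 and 34.3 in aged, and 13.0, 19.6, 21.0, 26.6 and 23.0 in aged Ri libraries. Aged Ri 4 lay above young 1, so the groups overlapped. The fall was 1.57-fold (log2 -0.65 ± 0.22, SE; edgeR adjusted p = 0.0482), the closest of the 4 to the threshold, with log2 ratios of -0.64, -0.53 and -0.80 in the batches. It was called in 3 of the 14 fits that leave out a library, those without aged 5, aged Ri 2 or aged Ri 4, and in the rest the edgeR adjusted p was 0.0517 to 0.182.

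**Figure D5:**
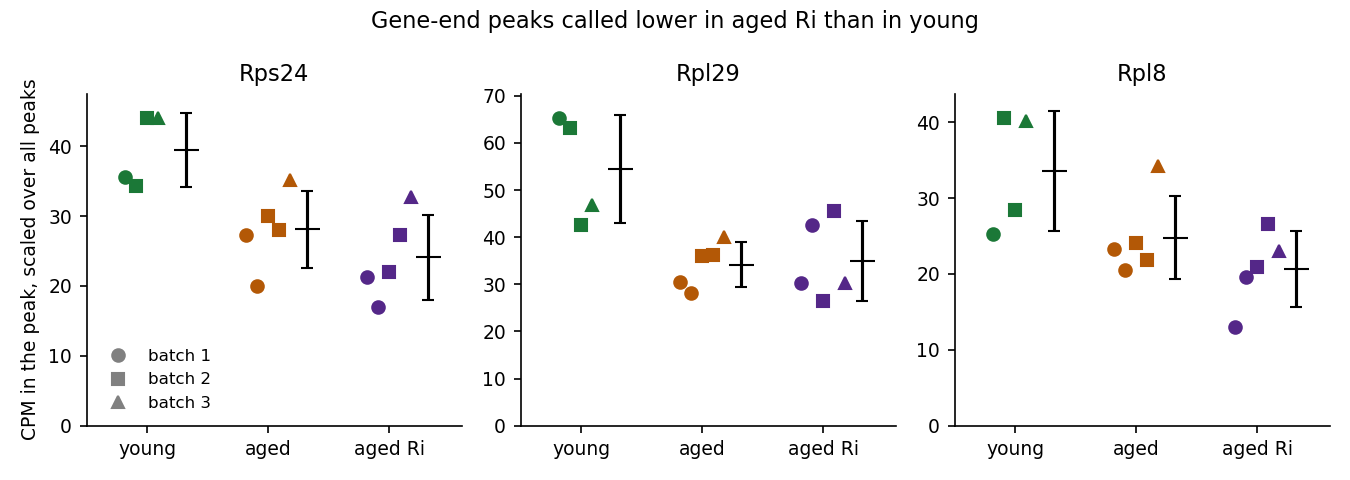
CPM, normalized over all peaks, in each library at 3 ribosomal protein peaks called lower in aged Ri than in young cells, with the symbol giving the batch and the bar the mean ± SD. Young libraries are higher on average in each panel, and those of Rpl29 and Rpl8 overlap with aged Ri.

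Weaker peaks at the other end of a gene also appeared. The peak past the 3' end of Rps9 (chr7:3706887-3707586) measured 13.3, 15.8, 9.94 and 23.7 CPM in young and 28.9, 20.5, 29.3, 34.9 and 20.04 in aged libraries, and was the 1 ribosomal protein peak with an unadjusted p under 0.05 in the higher direction (log2 0.69 ± 0.26, SE; edgeR adjusted p = 0.0994). It was chosen for mention after its values were seen, and in batch 3 its ratio was below 0 (-0.24).

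Genes of the blood disorders were described as a list of 19, those of Diamond-Blackfan anaemia and Rps14 of the 5q- syndrome. None of the 19 was called at gene ends in any comparison. Of all gene ends, 2.1% were called in aged against young, 0.0755% in aged Ri against aged and 5.2% in aged Ri against young. Below 0 lay 16 of the 19 in aged against young (median -0.11; 50.8% of all gene ends). In aged Ri against young it was also 16 (median -0.20; 50.6% of all). Rps14 measured 144 ± 12.2 CPM in young (SD, n = 4), 138 ± 18.8 in aged and 135 ± 29.6 in aged Ri libraries (SD, n = 5 each). Rpl5 and Rpl11, which bind MDM2 when ribosome assembly fails and so stabilise p53, measured 72.4 ± 12.2 and 92.5 ± 20.8 CPM in young (SD, n = 4), and 61.7 ± 10.8 and 73.8 ± 3.15 in aged Ri libraries (SD, n = 5). Their adjusted p-values in aged Ri against young were 0.452 and 0.148 with edgeR. Of the p53 checkpoint genes, Mdm2, Mdm4 and Trp53 had tested ends and none was called, and Cdkn1a had no peak.

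Some ribosomal proteins carry other symbols. Fau and Rack1 encode ribosomal proteins, Fau as a fusion to a ubiquitin-like protein, and neither was called. Of the 8 paralogues left out by the rule, 7 symbols matched the annotation and 4 were tested (Rpl3l, Rpl7l1, Rpl22l1 and Rpl36al). With so few genes, 0 called lies near the share of all gene ends (5.2% at most, in aged Ri against young). Rpl22l1, the paralogue of Rpl22, measured 129 ± 15.6 CPM in young, 109 ± 15.9 in aged and 102 ± 15.8 in aged Ri libraries (SD). Rpl10l, Rpl39l and Rps27l had no peak, whereas Rpl39 measured 56.9 ± 7.33, 66.0 ± 10.0 and 61.3 ± 11.3 CPM (SD).

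Most of the wider machinery had no called change. Over all gene ends, 2.1% were called in aged against young, 0.0755% in aged Ri against aged and 5.2% in aged Ri against young. In lists of this size, 0 called lies near those shares. Among 36 translation factors and other TOP genes 0 were called in each comparison, with medians of -0.10 in aged against young, -0.02 between the aged groups and -0.13 in treated aged against young cells. Eef1a1 and Eef2, which carry transfer RNA to the ribosome and move it along, lay at log2 -0.04 and 0.12 in aged Ri against young. Of 47 ribosome biogenesis genes 0 were called, with medians of -0.08, 0.02 and -0.08, and the nucleolar proteins Ncl and Npm1 lay at -0.27 and -0.13 in aged Ri against young. Of the 17 regulators in the mTOR, MYC and promoter factor list, 1 was called: Eif4ebp1, the repressor of cap-dependent translation that mTOR inactivates, measured 139 ± 13.4 CPM in young (SD, n = 4), 166 ± 17.2 in aged and 189 ± 34.1 in aged Ri libraries (SD, n = 5 each), 1.39-fold higher in aged Ri than young (log2 0.48 ± 0.13, SE; edgeR adjusted p = 0.0257). In that comparison 5.2% of all gene ends were called, and 4% of all gene ends were called higher. Eif4ebp1 was not called on the scale of all peaks (log2 0.23; edgeR adjusted p = 0.446) or without young 1, young 2 or aged Ri 3 (edgeR adjusted p = 0.106 to 0.193). Myc lay at 0.37 in aged against young and -0.30 in aged Ri against aged, and Mtor at 0.09 and 0.14, none called.

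Of the 75 mitochondrial ribosomal protein genes tested, 2 were called, both lower in aged Ri than young, where 1.2% of all gene ends were lower: Mrpl23 (1.68-fold; edgeR adjusted p = 0.0424) and Mrps7 (1.42-fold; edgeR adjusted p = 0.0422). Mrpl23 measured 38.7 ± 9.58, 36.9 ± 6.63 and 23.5 ± 4.13 CPM and Mrps7 91.5 ± 17.7, 67.6 ± 6.19 and 61.9 ± 6.86 CPM in young, aged and aged Ri libraries (SD). Each was called in 6 of the 14 fits that leave out a library. DESeq2 called neither (adjusted p = 0.0594 for Mrpl23 and 0.0660 for Mrps7), nor did edgeR without the batch term (adjusted p = 0.0813 and 0.0818) or with only the 2 groups (0.0755 and 0.0634). Mrpl23 was not called without young 1, 2 or 4, aged 2 or aged Ri 1, 2, 3 or 5 (edgeR adjusted p = 0.0519 to 0.149), and Mrps7 not without young 1 or 3, aged 2 or 4 or aged Ri 1, 2, 3 or 5 (edgeR adjusted p = 0.0504 to 0.198). In aged Ri against young, 51 of 75 mitochondrial genes lay below 0 (median -0.08), beside 58 of 74 cytosolic ones (median -0.16), and the difference between the lists was not tested.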

How the data were processed

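Raw counts of reads per consensus peak were deposited by the authors as 1 matrix of 57289 peaks of 700 bp on mm10 and 14 libraries. The submitters' processing notes name SAMtools 1.14, R 4.2.0 and featureCounts. The aligner, peak caller, duplicate handling and any Tn5 shift are not given in the sources used here. All values were whole numbers.

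Genes came from RefSeq GRCm38.p6, the assembly of mm10. The gene table gives no strand (taken from the promoter table where it lists the gene), so the annotated end (within 1 kb) whose peaks held more counts was used, and peaks near 2 genes count for both. Tests used edgeR 4.0.16 in R 4.3.3 (TMM scaling, filterByExpr with the groups, a robust quasi-likelihood test with terms for group and batch, all 14 libraries) on all 13239 gene ends and 56235 peaks kept, with Benjamini-Hochberg adjustment over all of them and a threshold of 0.05. TMM used gene-end counts alone for gene ends and all peaks for single peaks. SEs are the log2 fold change over the square root of F, and SDs of groups are of CPM. Tables and figures used Python 3.11.15 with pandas 2.3.3 and matplotlib 3.10.9. DESeq2 1.42.0, other scalings, windows, ends, filters, batch and pairing terms and leaving out each library were alternatives. The fits were tested on simulated data.

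The genes, lists and tests were chosen with earlier results of these data known. The lists were the anaemia genes, ribosomal proteins with other symbols, paralogues, translation factors, biogenesis, regulators, the p53 checkpoint, mitochondrial ribosomal proteins and cell markers. Genes named were those called, the 4 highest and 4 lowest log2 fold changes per comparison with a mean count of at least 20, the 5 highest and 5 lowest levels, and some known for roles in blood or translation; the text gives part of these. Depth ran from 765533 to 3176246 counts, and no pair of libraries of a group agreed within sampling noise.

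Replicate numbers were checked for pairing over deviations of log2 CPM from group means at 25903 peaks whose mean count reached 20. Libraries of aged and aged Ri cells that bear 1 number correlated at 0.130 to 0.645 in all 5 pairs (median 0.375). Other numbers gave -0.463 to 0.351 (median -0.142), so the ranges overlapped. Libraries of these groups with 1 number also share a batch. Within batch 1, the same numbers gave 0.375 and 0.130, and different numbers 0.351 and -0.073. Within batch 2, the same numbers gave 0.645 and 0.275, and different numbers -0.065 and -0.222. These differences were not tested, and the main fits held no pairing term. The labels do not state that a number marks 1 animal. Pairing by number is therefore possible but not shown. Numbers shared with young libraries gave -0.274 to 0.0809 and show no pairing. Some items are not reported here.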

Additional observations from a re-analysis of the deposited data

Results flagged for a closer look

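Among 96 sets of 4 or 5 libraries looked at, those of 30 named ribosomal protein genes and of the shares of counts in each group, 4 held a library far from the rest of its group by Dixon's rule, where chance gives about 1 in 20. At Rpl10, young 4 measured 102 CPM against 148 to 154 in the other young libraries. At Rpl13a, young 1 measured 206 CPM against 269.5 to 275. At Rpl22, aged Ri 1 measured 29.0 CPM against 5.67 to 10.4, in a weak 3' peak with a mean count of 11.5. At Rps15, aged 2 measured 47.5 CPM against 65.3 to 68.8. No library was set apart at more than 1 gene.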

How the results depend on the processing

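Of 3546 alternative values of named genes and peaks, 3454 kept their side of the threshold, 68 lost the call, 24 gained one and 0 turned a called direction. Most of these features were not called in the main fit, so the total does not measure how stable the calls were. In aged Ri against young, the call held in 7 of 21 alternatives at the Rpl8 peak, 11 of 21 at Rpl29 and 14 of 21 at Rps24. At gene ends it held in 19 of 25 for Eif4ebp1, 14 of 26 for Mrpl23 and 13 of 25 for Mrps7. The replicate block, which pairs aged with aged Ri libraries by number, left 0 ribosomal protein gene ends and 0 peaks called between them. With it, 1.15% of all gene ends, 4.42% of all peaks and 1.58% of gene-end peaks were called. Without it these shares were 0.0755%, 0.446% and 0.0947%. Young libraries share only numbers with the others, and with the block aged against young had 1 called gene end of 74 (1.35%, against 15.2% of all gene ends) and 18 peaks of 84 (21.4%, against 21% of gene-end peaks), and aged Ri against young 2 gene ends (2.7%, against 17.7%) and 22 peaks (26.2%, against 24.4%). With it the Rpl29 peak was called in aged against young (edgeR adjusted p = 0.0360) and Mrpl23 was not called in aged Ri against young (log2 -0.49; edgeR adjusted p = 0.318). Scaled over all peaks, the median log2 fold change of the 74 gene ends was -0.31 in aged against young (all gene ends -0.25) and -0.38 in aged Ri against young (all -0.24), and 3 gene ends were called in the latter. For peaks in aged against young, DESeq2 called 1 (1.19%), loess offsets 1 (1.19%) and a fit of only the 2 groups 5 (6.02%). In these fits 3.06%, 4.26% and 4.43% of gene-end peaks were called. For peaks in aged Ri against young, loess offsets called 9 (10.7%, against 9.99% of gene-end peaks). In that comparison 0 were called without a batch term or with only the 2 groups, where 2.78% and 3.71% of gene-end peaks were. In each case the cause was not tested.

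Leaving out 1 library gave 0 to 1 called gene ends and 0 to 6 peaks in aged against young (6 without aged 5, 4 without young 4, with 6.08% and 7.14% of gene-end peaks called), 0 of both in aged Ri against aged, and 0 to 3 gene ends and 0 to 21 peaks in aged Ri against young. Medians of gene ends stayed at -0.13 to -0.04, -0.13 to -0.03 and -0.21 to -0.10 in the 3 comparisons. Mean shares of all counts stayed at 0.475 to 0.493% in young, 0.392 to 0.420% in aged and 0.372 to 0.413% in aged Ri libraries. Of gene-end counts they were 0.995, 0.960 and 0.922%, and with a window of 2 kb the young mean was 0.520%.

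Single peaks hold few counts. With intervals of gene ends near 1.5-fold, smaller differences can be missed, though Eif4ebp1 and Mrps7 were called at changes below that. Accessibility at a promoter is not transcription or protein synthesis, neither of which was measured here.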
